A study of Homo sapiens with 16 samples.

Results

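The CCL2 chemokine cluster on human chromosome 17 holds the genes CCL2, CCL7, CCL11, CCL8, CCL13 and CCL1, in that order along the chromosome. It was described through every ATAC-seq peak that overlapped chr17:32500000-32750000 (hg19), a window of 250 kb, in each of 16 deposited peak lists. Peaks of libraries sequenced the same way were merged into regions wherever they shared at least 1 bp. The window held 27 of 153040 regions in the paired-end libraries and 16 of 103322 in the single-end libraries, built from 178 of 1172541 listed peaks. CCL2 is the gene whose position on hg19 the sources give, with its start at 32582296, so every region is named by the distance of its strongest summit from that start and no region is assigned to another gene. Regions at negative distances lie on the side of the CCL2 promoter.

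The study asked how FOXF1 and FOXF2, forkhead transcription factors of mesenchymal cells, and the coactivators p300 and CBP act on chromatin accessibility in oncogene-induced senescence. All libraries came from IMR-90 ER:Ras, an established human lung fibroblast line with an inducible Ras, in which 4-hydroxytamoxifen (4-OHT) sets off senescence. The 10 paired-end libraries (35 bp reads) were 2 with siFOXF1/2, 2 with JUN-family knockdown, 4 of senescent cells with control siRNA (Sen) and 2 of proliferating cells with control siRNA (Pro). The 6 single-end libraries (75 bp reads) were 2 with sip300/CBP, 2 with sip65, which targets the RELA subunit of NF-kB, and 2 Sen. Every group except Pro received 100 nM 4-OHT for 6 days. The JUN libraries are titled cJUN/JUND while their treatment label also names JUNB, and the Pro libraries were taken as proliferating from their titles because their cell type label reads as senescent. The lists hold no expression values, so neither the knockdowns nor the cell type could be checked in them.

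The 6 genes encode CC chemokines, small secreted proteins that attract leukocytes through G protein-coupled receptors. CCL2 draws monocytes through the receptor CCR2 and is a well-known component of the secretory phenotype of senescent cells; CCL7, CCL8 and CCL13 are its close relatives, CCL11 draws eosinophils through CCR3, and CCL1 acts through CCR8. Transcription of CCL2 in fibroblasts is known to respond to NF-kB, which binds a distal element upstream of the gene, and to AP-1, the dimer that JUN proteins form.

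The upstream sequences of the members are shown because the knocked-down factors have known recognition motifs. The RefSeq table used here (GRCh38.p14) matched 4 of the 6 members, CCL7, CCL8, CCL13 and CCL1. The 250 bases before each gene start follow, 5′ to 3′ on the gene's strand, with motif matches in capitals.
CCL7, chr17:34269971-34270220, plus strand: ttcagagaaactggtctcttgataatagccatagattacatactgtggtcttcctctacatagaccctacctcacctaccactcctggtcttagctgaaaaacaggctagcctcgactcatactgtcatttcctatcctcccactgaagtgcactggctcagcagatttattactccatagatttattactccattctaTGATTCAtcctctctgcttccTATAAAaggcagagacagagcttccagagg
CCL8, chr17:34319185-34319434, plus strand: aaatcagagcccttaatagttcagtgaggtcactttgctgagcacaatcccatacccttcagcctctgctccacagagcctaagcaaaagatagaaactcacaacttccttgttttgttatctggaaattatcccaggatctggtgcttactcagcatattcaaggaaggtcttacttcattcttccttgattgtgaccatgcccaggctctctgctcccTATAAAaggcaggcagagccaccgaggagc
CCL13, chr17:34356230-34356479, plus strand: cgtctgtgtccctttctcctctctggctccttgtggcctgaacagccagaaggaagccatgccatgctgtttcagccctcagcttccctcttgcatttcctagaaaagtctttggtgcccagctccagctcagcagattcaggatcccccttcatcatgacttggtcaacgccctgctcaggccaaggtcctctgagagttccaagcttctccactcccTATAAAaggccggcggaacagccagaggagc
CCL1, chr17:34363234-34363483, minus strand: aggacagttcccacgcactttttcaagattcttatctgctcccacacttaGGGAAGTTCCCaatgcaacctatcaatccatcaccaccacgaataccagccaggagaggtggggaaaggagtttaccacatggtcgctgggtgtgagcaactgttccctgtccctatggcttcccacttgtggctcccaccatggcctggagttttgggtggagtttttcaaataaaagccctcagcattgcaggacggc
Motifs were searched on both strands as TGANTCA for AP-1, TGTTTNC for forkhead factors, GGGNNNNNCC for NF-kB and TATAAA for the TATA box. They occurred in 6.57%, 15.5%, 54.4% and 10.7% of the 35116 upstream sequences of the table. CCL7 held the AP-1 match TGATTCA between 51 and 45 bases before its start. CCL1 held 2 overlapping NF-kB matches, GGGAAGTTCC and GGAAGTTCCC, between 200 and 190 bases before its start, a motif that most sequences of this length also held. No forkhead match lay in the 4 sequences. TATAAA stood 30 to 25 bases before the start of CCL7 and CCL8 and 31 to 26 bases before that of CCL13. CCL7, CCL8 and CCL13 shared the 12 bases CCTATAAAAGGC at that place, a stretch found in 4 of the 35116 sequences (0.0114%). These coordinates are on another build than the peaks, so they were not overlaid on them, and a match is a description of letters, not of binding.

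Heights are given on a scale recovered from the lists. Each listed peak carries the authors' fold enrichment and p-value, and together they return the whole number of fragments or reads at the summit (the pileup) and the local background used by the caller. The sources do not say whether that background includes the peak's own reads, so height and local background cannot be taken as separate measures. Both were divided by the library's genome-wide background coverage, 1.74 to 3.08 in the paired-end set and 0.195 to 0.475 in the single-end set. Listing required 4.58 to 6.31 times that background in paired-end libraries and 14.7 to 25.7 times in single-end libraries, so weaker sites in the single-end set could not have been seen. Read totals were not part of the lists. A region is called closed when every library of the group set against held a peak and no library of the group under study did, opened where the roles are exchanged, and kept when all held one. In bulk libraries, weaker accessibility in every cell and loss of it in some cells cannot be told apart. The labels do not say whether replicates came from separate cultures, so p-values measure the spread between these libraries.

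The 2 strongest sites of the cluster, at −2.5 and +20.8 kb, were listed in every paired-end library. Of the 27 paired-end regions, 10 lay on the promoter side of the CCL2 start and 17 beyond it. All 10 libraries held 6 of them, at −77.4, −55.1, −2.5, +20.8, +44.8 and +106.4 kb, and 6 were held by a single library. At 5 of the 6 shared regions the summits of all 10 libraries lay within 45 to 152 bp of each other. In the single-end libraries, 1 of 16 regions, at −2.6 kb, was held by all 6 libraries, 6 were held by a single library, and 13 overlapped a paired-end region.

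**Figure D1:**
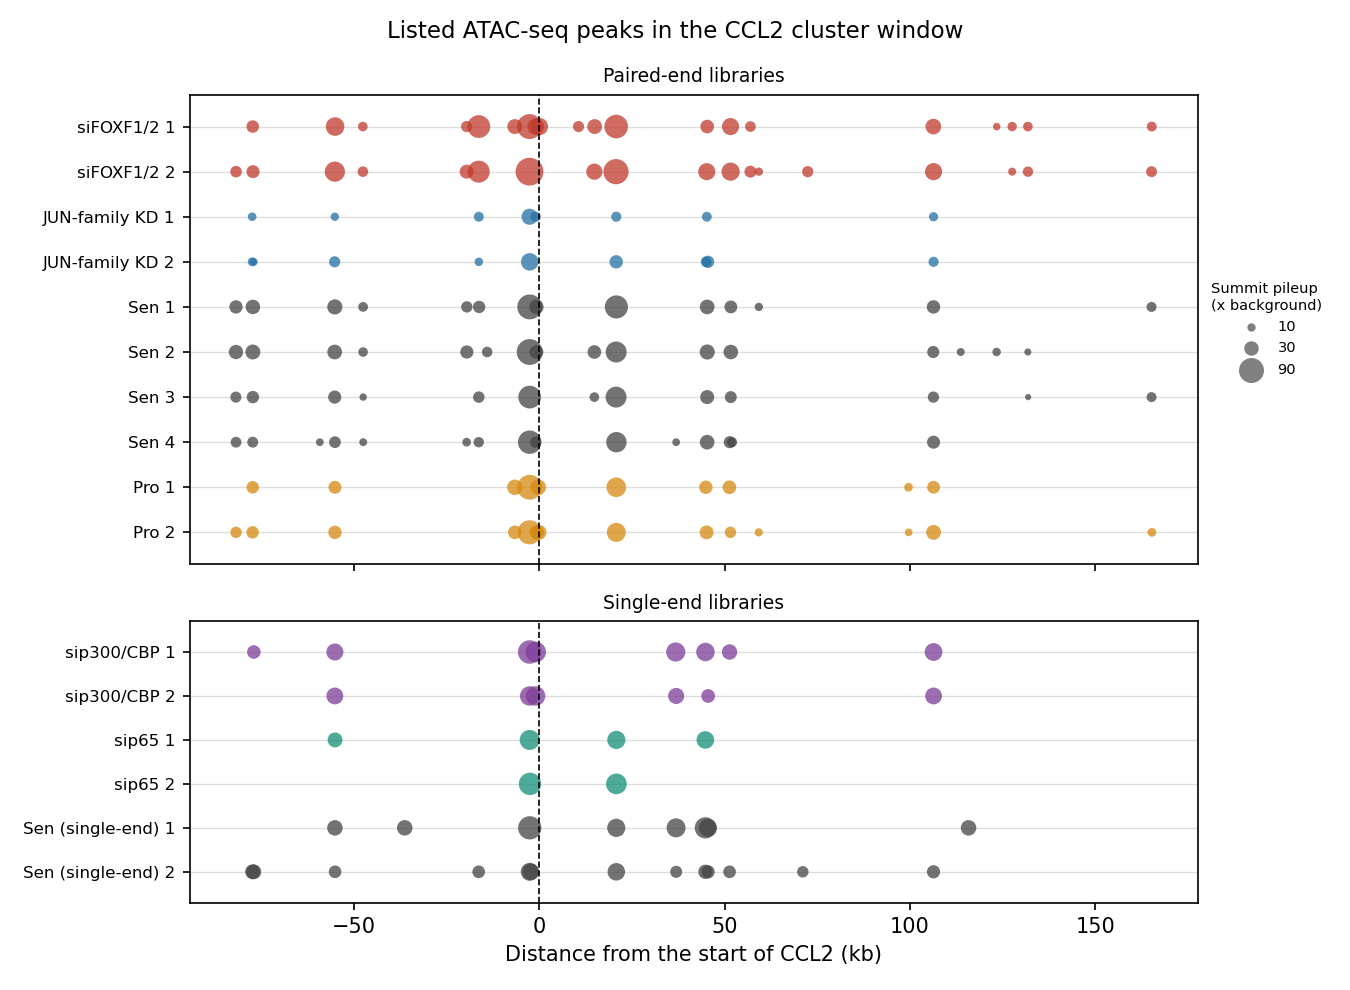
Each dot is a listed peak at its distance from the CCL2 start (x axis, kb; dashed line at the start), 1 row per library, with dot area growing with the summit pileup in multiples of the genome-wide background. The 2 siFOXF1/2 libraries carry 20 and 18 peaks and the 2 JUN-family knockdown libraries 8 and 9, while the summit at −2.5 kb appears in all 10 paired-end libraries.

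Among the paired-end groups, the number of window peaks was highest with siFOXF1/2 and lowest with JUN-family knockdown. The siFOXF1/2 libraries held 20 and 18 peaks, against 14, 16, 13 and 15 in Sen replicates 1 to 4. The means were 19 ± 1.41 (SD, n = 2) with siFOXF1/2 and 14.5 ± 1.29 (SD, n = 4) in Sen, and the groups did not overlap. The two-sided exact permutation test gave p = 0.0667, the smallest that 2 libraries against 4 allow, and 0.222 after Benjamini-Hochberg adjustment over 10 tests. The ratio of peak numbers was 1.31 in the window, against 1.04 over the whole genome, and 88.5% of 250 kb bins had a lower ratio than the window. With lists cut to equal length the difference of 4.5 peaks became 2.75.

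JUN-family knockdown left 8 and 9 peaks, a mean of 8.5 ± 0.707 (SD, n = 2) against 14.5 ± 1.29 in Sen (SD, n = 4), again without overlap (exact permutation p = 0.0667, adjusted 0.222). The ratio of 0.586 was close to the 0.607 of the whole genome, and 43.3% of bins lay below it. With lists cut to equal length, which evens out total numbers by construction, the difference of −6 peaks became 0.25. The 4 Sen libraries and the 2 Pro libraries (10 and 14 peaks) differed by 2.5 peaks on average, and these groups overlapped (exact permutation p = 0.267, adjusted 0.417). Here the window ratio was 1.21 and the genome ratio 1.54, with 14.3% of bins below the window, and lists of equal length turned the difference to −2.75.

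In the single-end set, sip300/CBP libraries held 8 and 6 peaks, sip65 libraries 4 and 2, and Sen libraries 8 and 13. The exact permutation p was 0.667 for sip300/CBP and 0.333 for sip65, the smallest that 2 against 2 allow (adjusted 0.667 and 0.417). The window ratio was 0.286 for sip65 against 0.506 over the genome, with 3.63% of bins below it, but lists of equal length turned the difference of −7.5 peaks to 0.5. For sip300/CBP the window ratio was 0.667 and the genome ratio 0.963, with 11.0% of bins below it, and lists of equal length turned the difference of −3.5 peaks to 0.

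None of the 4 Sen libraries had a listed summit at the start of CCL2, against both Pro libraries. Both Pro libraries had their summit 43 bp before the start (−43 bp), at 35.0 and 31.8 times the background, a mean of 33.4 ± 2.24 (SD, n = 2). Their fold enrichments were 4.60 and 4.17, by the authors' values. Among the other paired-end libraries, siFOXF1/2 replicate 1 had a summit at +24 bp with 42.9 times the background, while siFOXF1/2 replicate 2, both JUN-family knockdown libraries and all 6 single-end libraries had none within 250 bp of the start. A merged region of 1314 bp, chr17:32581235-32582548, joins this summit to another at −1.0 kb. The −1.0 kb summit was listed in siFOXF1/2 replicate 1 at 39.8, in JUN-family knockdown replicate 1 at 14.9, in Sen replicates 1, 2 and 4 at 30.0, 27.6 and 18.3, and in Pro replicate 2 at 29.8 times the background. The merged region therefore counted as neither closed nor kept, and the split was seen when 500 bp windows were set on summits: the window on the start was held by 1 of 2 siFOXF1/2, 0 of 2 JUN-family knockdown, 0 of 4 Sen and 2 of 2 Pro libraries.

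How much lower Sen was at the start is limited by its surroundings. The local background near CCL2 was 7.52 ± 1.32 times the genome-wide level in Sen (SD, n = 4) and 7.21 ± 0.0601 in Pro (SD, n = 2), so a summit in Sen had to reach 14.4 to 18.4 times the genome-wide background to be listed. By these local floors the Pro height was at least 1.73-fold that of any Sen library, or 1.83-fold with libraries scaled on kept regions, and by genome-wide floors 6.12-fold. In siFOXF1/2 replicate 2 the local floor was 30.6, close to the Pro heights, so the missing summit there says little. In the JUN-family knockdown libraries the floors were 9.41 and 12.9. In single-end libraries a summit had to reach 27.4 to 52.0 times the background. Heights of the 2 sets are not on the same scale. The +36.9 kb site stood at 8.57 in paired-end Sen replicate 4, and its single-end counterpart at 52.0 and 21.0 in Sen. Whether a start summit of the Pro height would have been listed in single-end libraries therefore cannot be told. With 500 bp windows 4 of 10 windows held by both Pro libraries closed in Sen, where 4.29% of all such windows did, and the start was 1 of the 4. The others were at −6.6, +44.8 and +99.7 kb. The +44.8 kb window lies in a merged region that every Sen library held with its summit near +45.6 kb. Its closing is therefore a change of summit position, not a missing peak.

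**Figure D2:**
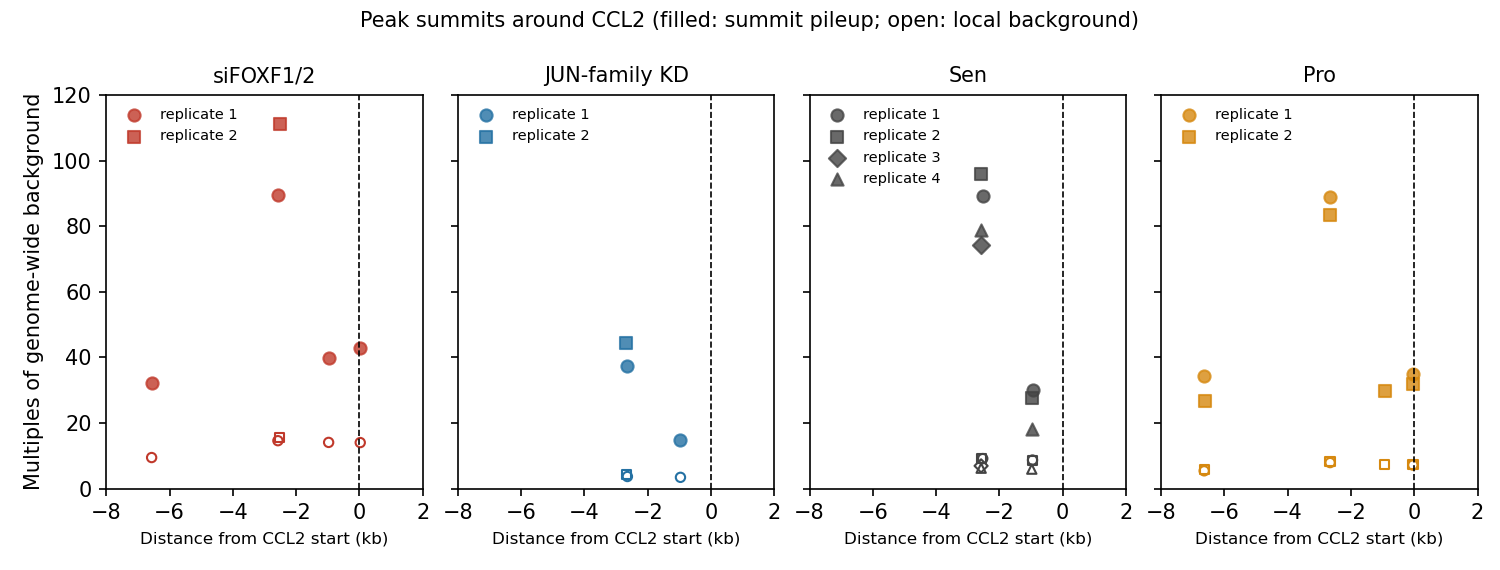
Summits between −8 and +2 kb of the CCL2 start in the paired-end libraries, by group from siFOXF1/2 to Pro, with filled symbols for the summit pileup and open symbols for the local background, both in multiples of the genome-wide background, and a symbol shape per replicate. Summits at the start (dashed line) appear in both Pro libraries and siFOXF1/2 replicate 1, and the open symbols at −2.5 kb are highest with siFOXF1/2.

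The strongest site of the cluster lay upstream of CCL2 at −2.5 kb (chr17:32579209-32580149), on the side where the distal NF-kB element of CCL2 is known. Its summit stood at 89.5 and 111 times the background with siFOXF1/2, at 37.3 and 44.3 with JUN-family knockdown, at 89.2, 96.0, 74.2 and 78.7 in Sen replicates 1 to 4, and at 89.0 and 83.4 in Pro. The Sen and Pro heights overlapped, with a ratio of 0.981. The siFOXF1/2 and Sen heights overlapped as well, with a ratio of 1.19. JUN-family knockdown heights lay below all Sen heights at a ratio of 0.482, and 26.7% of the 43819 regions kept in that comparison had a lower ratio. In the single-end libraries the site reached 79.5 and 54.5 with sip300/CBP, 57.4 and 71.8 with sip65, and 78.1 and 46.3 in Sen, and all groups overlapped.

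The local background around that site was higher with siFOXF1/2 and lower with JUN-family knockdown than in Sen. With siFOXF1/2 it was 14.6 and 15.6 times the genome-wide level, a mean of 15.1 ± 0.695 (SD, n = 2). In Sen it was 9.15, 9.09, 6.92 and 6.22, a mean of 7.85 ± 1.50 (SD, n = 4). The groups did not overlap, under scaling by background or on kept regions, where 41.5% and 25.7% of all kept regions stood higher in this way. The ratio of 1.92 exceeded that of 96.6% of the 65257 kept regions, whose median was 0.17 on the log2 scale. Sen replicates 1 and 2, whose peaks are named in the same style as those of siFOXF1/2, lay nearer to siFOXF1/2 than replicates 3 and 4 did, without overlap. JUN-family knockdown showed 3.68 and 4.23, a mean of 3.96 ± 0.390 (SD, n = 2), at a ratio of 0.504 to Sen that 14.1% of its kept regions fell below. Pro, at 7.92 and 8.16, lay inside the Sen range when scaled by background. All Sen values lay below both Pro values when scaled on kept regions, as at 43.4% of all kept regions. Single-end libraries gave 7.07 and 5.80 with sip300/CBP, 5.60 and 5.08 with sip65, and 8.07 and 5.15 in Sen, so no difference was detectable there.

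**Figure D3:**
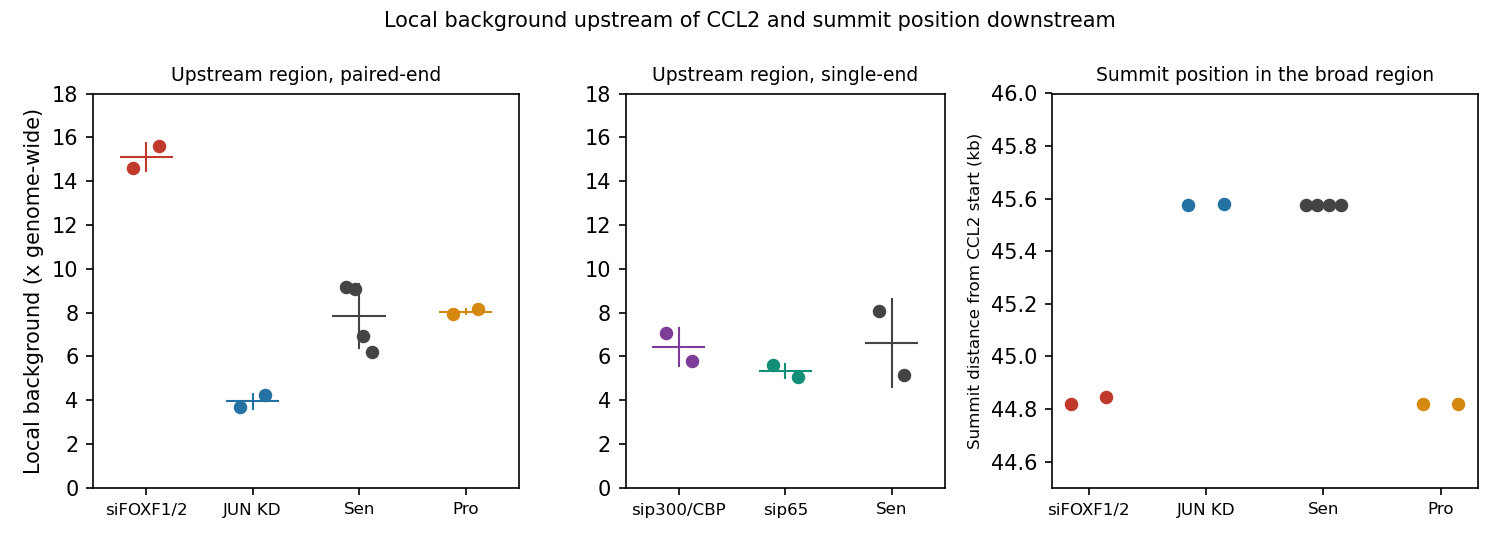
Left and centre panels show the local background at the region upstream of CCL2 (−2.5 kb paired-end, −2.6 kb single-end) in multiples of the genome-wide level, with dots for libraries, a horizontal line for the mean and a vertical line for ± 1 SD. The right panel shows the summit position in the broad region downstream of CCL2, in kb from its start, where siFOXF1/2 and Pro libraries lie near 44.8 kb and JUN-family knockdown and Sen libraries near 45.6 kb.

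Entry into senescence changed few of the window's sites by presence or absence. Of the 10 regions held by both Pro libraries, 2 closed in Sen, where 3.96% of all such regions did. The region at −6.6 kb (chr17:32575602-32575825) was listed in no Sen library and stood at 34.4 and 26.8 times the background in Pro. It was also listed in siFOXF1/2 replicate 1 at 32.1. By genome-wide floors the Pro height was at least 5.15-fold higher, but by the local floors of the Sen libraries, which reached 19.2, at least 1.40-fold. The other, at +99.7 kb (chr17:32681807-32682124), was listed in no Sen library and was weak in Pro at 10.9 and 8.59, at least 1.65-fold what could have stayed unlisted in Sen.

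A single region opened in Sen, 1 of the 9 that all 4 Sen libraries held, where 26.1% of all such regions opened. It lay at −47.6 kb (chr17:32534386-32534989) and stood at 13.8, 13.2, 7.85 and 8.96 times the background in Sen replicates 1 to 4, at least 1.24-fold what could have stayed unlisted in Pro. It was kept with siFOXF1/2 at 13.4 and 16.1 and listed in neither JUN-family knockdown library. The count became 2 without Sen replicate 2, without Sen replicate 3 or without Pro replicate 2, and 2 against Sen replicates 1 and 2 or 3 and 4 alone.

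At the 7 regions kept in all Sen and Pro libraries the heights differed little. The Sen heights lay above both Pro heights at 2 of 7, where 22.4% of all kept regions did. At +20.8 kb (chr17:32602759-32603452), the second strongest site of the window, they were 76.8, 63.2, 62.8 and 59.6 in Sen and 55.1 and 52.1 in Pro, a ratio of 1.22. At a broad region around +44.8 to +45.6 kb they averaged 30.8 ± 1.79 in Sen (SD, n = 4) and 26.8 ± 1.40 in Pro (SD, n = 2). Over the 7 regions the median log2 ratio was 0.13, beside −0.17 over all 49449 kept regions.

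The position of the summit within that broad region (chr17:32626983-32628213) differed between paired-end groups, with siFOXF1/2 near the Pro position and JUN-family knockdown near the Sen position. With siFOXF1/2 it lay at 44821 and 44847 bp from the CCL2 start. With JUN-family knockdown it lay at 45576 and 45579 bp, in all 4 Sen libraries at 45576 bp, and in Pro at 44820 and 44819 bp. Such a shift of at least 500 bp between groups occurred at 1 of 7 regions kept between Sen and Pro and 1 of 8 kept between siFOXF1/2 and Sen, where 0.639% and 0.493% of all kept regions showed it. A listed peak has 1 summit, so a lower maximum elsewhere in the same peak is not recorded. JUN-family knockdown replicate 2 listed a separate peak near +44.8 kb as well. In single-end libraries both Sen libraries listed both positions, at 65.1 and 29.5 times the background near +44.8 kb and 47.7 and 25.3 near +45.5 kb. Both thus stood higher near +44.8 kb, the reverse of the paired-end Sen summits, but by few reads. The summits held 15 against 11 reads in replicate 1 and 14 against 12 in replicate 2, so the order of the 2 positions is uncertain there. Of the other single-end libraries, sip300/CBP replicate 1 and sip65 replicate 1 listed the first position alone, and sip300/CBP replicate 2 the second alone.

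With siFOXF1/2 no region of the window closed and several sites stood higher, in a comparison where 46.1% of all kept regions stood above every Sen library. Of the 9 regions held by all Sen libraries, 0 closed, where 8.1% of all such regions did. Of the 15 regions held by both siFOXF1/2 libraries 2 opened, where 9.7% of all such regions did. The region at +57 kb (chr17:32639173-32639377) stood at 16.5 and 20.8 times the background with siFOXF1/2 and was listed in no Sen, Pro or JUN-family knockdown library. That is at least 3.16-fold what could have stayed unlisted in Sen, 2.64-fold by local floors and 2.54-fold scaled on kept regions. The region at +127.7 kb (chr17:32709718-32710074) was weaker, at 12.6 and 9.34, with bounds of 1.80 and 1.38. Without siFOXF1/2 replicate 2 the counts were 1 closed and 4 opened, but a call is easier to meet with fewer libraries.

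Among the regions that at least 2 Sen libraries listed, the highest ratio of siFOXF1/2 to Sen was at −16.3 kb (chr17:32565585-32566383), a region singled out after its values were seen. It stood at 74.6 and 69.6 with siFOXF1/2, a mean of 72.1 ± 3.57 (SD, n = 2). In Sen it was listed at 22.0, 19.0 and 15.6 in replicates 1, 3 and 4 and not in replicate 2, a mean of 18.9 ± 3.23 over the 3 libraries. JUN-family knockdown libraries listed it at 14.3 and 10.4, and Pro libraries did not list it. The lower siFOXF1/2 library was 3.16 times the highest Sen library, and the ratio of means, 3.82, exceeded that of 98.8% of the 6926 regions held by both siFOXF1/2 and 3 Sen libraries, whose median ratio was 1.41. Its local background was also higher with siFOXF1/2, at 5.75 and 7.19 against 1.77 to 3.00 in the Sen libraries that listed it.

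Among the 8 regions kept between siFOXF1/2 and Sen, 4 had both siFOXF1/2 heights above all Sen heights, where 46.1% of all kept regions did, and 3 of 8 after scaling on kept regions, where 21.1% did. Those 3 lay at −55.1, +51.3 and +106.4 kb. At −55.1 kb (chr17:32526822-32527527) the heights were 49.7 and 58.7 with siFOXF1/2 and 33.1, 31.2, 24.9 and 19.9 in Sen, a ratio of 1.99 that exceeded 94.1% of kept regions. At +51.3 kb (chr17:32633362-32634494) they were 42.1 and 47.8 with siFOXF1/2 and 23.8, 30.8, 20.6 and 21.0 in Sen, a ratio of 1.87 (92.3% below). At +106.4 kb (chr17:32688436-32688822) they were 35.2 and 42.6 with siFOXF1/2 and 26.2, 21.2, 18.3 and 24.6 in Sen, a ratio of 1.72 (89.0% below). The site at −77.4 kb did not share this, with 22.6 and 24.4 with siFOXF1/2 inside the Sen range of 17.1 to 32.0. Background coverage averaged 2.27 with siFOXF1/2 and 2.76 in Sen, and beyond the scaling on kept regions its part in these ratios was not tested.

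**Figure D4:**
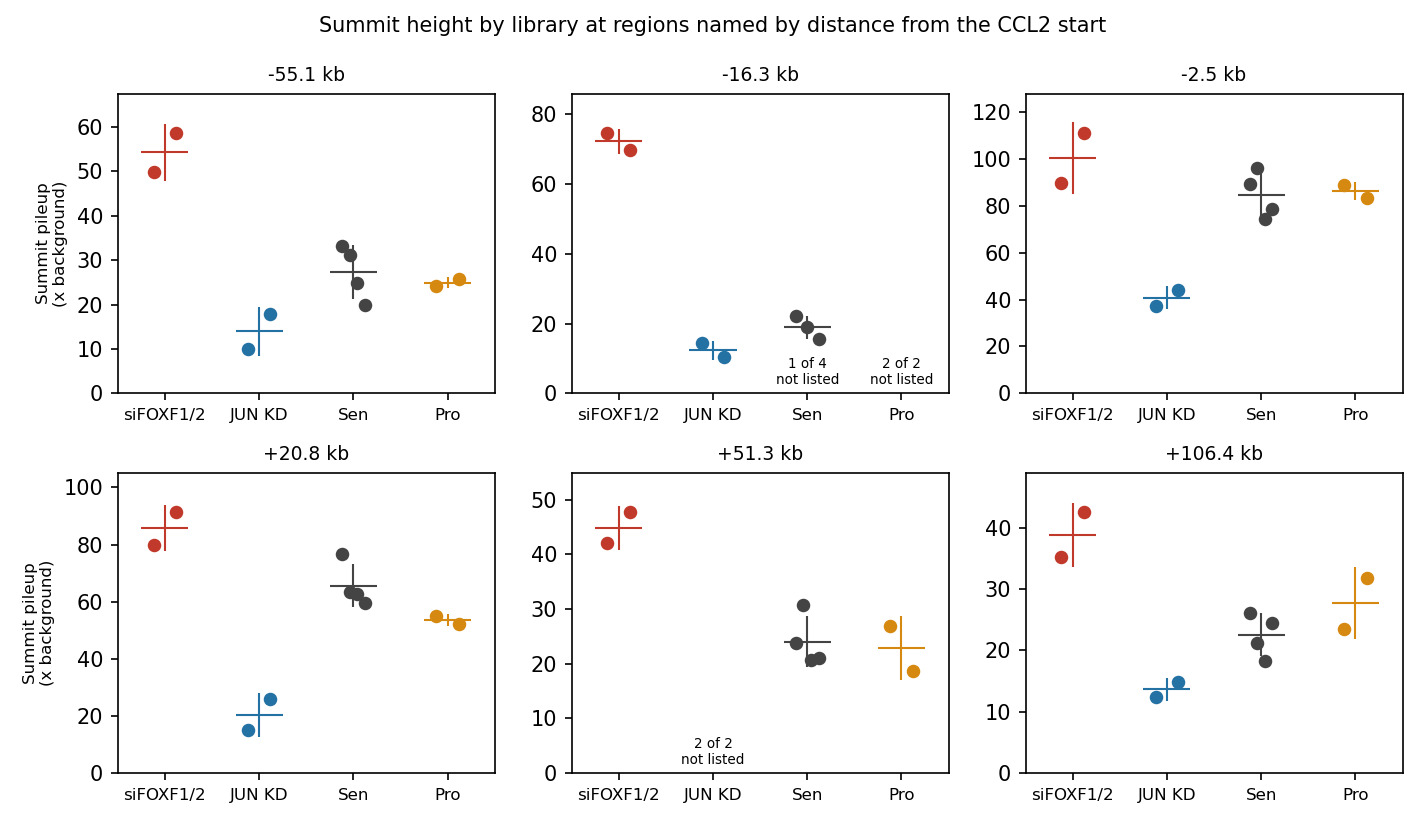
Summit pileup in multiples of the genome-wide background (y axis, starting at 0) for siFOXF1/2, JUN-family knockdown (JUN KD), Sen and Pro libraries at 6 regions named by distance from the CCL2 start. Dots are libraries, horizontal lines means and vertical lines ± 1 SD, over listed libraries; the siFOXF1/2 dots stand apart at −16.3 kb, at 69.6 and 74.6, and the JUN-family knockdown dots at +20.8 kb, at 14.9 and 25.9.

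After JUN-family knockdown all 6 kept sites of the cluster stood lower than in Sen, in a comparison where most kept regions of the genome did. Of the 9 regions held by all Sen libraries 3 closed, where 31.6% of all such regions did, and of the 7 held by both knockdown libraries 0 opened, where 5.91% did. The closed regions were at −81.8, −47.6 and +51.3 kb. At −81.8 kb (chr17:32500320-32500627) the Sen heights were 25.5, 29.6, 17.7 and 16.8, at least 2.81-fold what could have stayed unlisted after knockdown, 2.41-fold by local floors and 1.76-fold scaled on kept regions. At +51.3 kb the Sen heights of 20.6 to 30.8 gave bounds of 3.45 and 2.16 (scaled on kept regions). For the weak −47.6 kb region these were 1.32 and 0.824, so by the scaling on kept regions no loss could be bounded there.

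All 6 regions kept between JUN-family knockdown and Sen had both knockdown heights below every Sen height, where 83.8% of all kept regions did. Their median log2 ratio was −1.01, beside −0.79 over all 43819 kept regions. After scaling on kept regions 2 of 6 remained lower, where 20.2% of all did. These were the −2.5 kb site given above and the +20.8 kb site, which stood at 14.9 and 25.9 after knockdown, a mean of 20.4 ± 7.72 (SD, n = 2), against 65.6 ± 7.63 in Sen (SD, n = 4). The ratio of 0.311 at +20.8 kb was lower than that of all but 3.89% of kept regions, and its log2 ratio was −0.90 relative to the median of kept regions. Its local background, which may include the peak's own reads, was 1.14 ± 0.165 after knockdown (SD, n = 2) against 2.86 ± 0.402 in Sen (SD, n = 4). The +106.4 kb site ran the other way in its surroundings. Its summits were 12.3 and 14.9 after knockdown, below the Sen range of 18.3 to 26.2, but its local background was 1.61 ± 0.0191 after knockdown (SD, n = 2) against 1.31 ± 0.0972 in Sen (SD, n = 4), higher under both scalings. Such a rise was seen at 4.66% of kept regions when scaled by background and at 34.9% when scaled on kept regions.

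Knockdown of p300 and CBP, acetyltransferases recruited to enhancers, was followed in shallow single-end libraries with summits of 7 to 22 reads in the window. Of the 6 regions held by both Sen libraries 1 closed, where 17.4% of all such regions did. This was the site at +20.9 kb (chr17:32602953-32603230), the single-end counterpart of the +20.8 kb site. It was listed in neither sip300/CBP library and stood at 47.7 and 44.2 times the background in Sen, so Sen was at least 2.16-fold higher, or 1.83-fold scaled on kept regions. The same site was kept with sip65, at 47.8 and 61.6. Of the 5 regions held by both sip300/CBP libraries 1 opened, where 13.1% of all such regions did. It lay at −1.0 kb from CCL2 (chr17:32581272-32581408), at 60.6 and 54.5 with sip300/CBP, and no sip65 or single-end Sen library listed it. The bound was 2.51-fold by genome-wide floors, but 1.05-fold by local floors, since the region lies beside the −2.6 kb site. The paired-end Sen libraries listed that summit in 3 of 4 cases.

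At 2 of the 3 regions kept between sip300/CBP and Sen, −2.6 and +37 kb, the heights of the groups overlapped. At −55.2 kb they were 41.6 and 40.9 with sip300/CBP and 34.7 and 23.1 in Sen, at 1 of 3 regions without overlap, where 16.2% of all kept regions stood higher in this way. At +37 kb they were 53.0 and 37.5 with sip300/CBP and 52.0 and 21.0 in Sen, overlapping. Leaving out a library makes a call easier to meet. The closed count was 2 without sip300/CBP replicate 1 or replicate 2, 5 without Sen replicate 1 and 3 without Sen replicate 2. The opened count was 2 without Sen replicate 2.

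After sip65, 2 of the 6 regions held by both Sen libraries closed, where 29.6% of all such regions did, and 0 of the 2 held by both sip65 libraries opened, where 1.53% did. The closed regions were at +37 kb (chr17:32618923-32619321), at 52.0 and 21.0 in Sen, and at +45.5 kb (chr17:32627767-32627925), at 47.7 and 25.3 in Sen. Their bounds were 0.820 and 0.984 scaled by background, below 1, and 1 and 1.2 scaled on kept regions, so a loss at +37 kb was not detectable at this depth and one at +45.5 kb was bounded above 1 under the second scaling alone. Both sip65 libraries kept the −2.6 kb and +20.9 kb sites, at ratios to Sen of 1.04 and 1.19. The closed count was 4 without sip65 replicate 1, 9 without Sen replicate 1 and 4 without Sen replicate 2.

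The remaining regions were held by part of a group. At −19.6 kb (chr17:32562540-32562982) the heights were 18.0 and 28.0 with siFOXF1/2 and 18.6, 25.2 and 10.9 in Sen replicates 1, 2 and 4, and neither JUN-family knockdown nor Pro libraries listed it. At +14.8 kb (chr17:32596918-32597505) they were 31.8 and 37.9 with siFOXF1/2 and 26.8 and 13.4 in Sen replicates 2 and 3, again with no peak in JUN-family knockdown or Pro. At +131.8 kb they were 13.4 and 15.6 with siFOXF1/2 and 7.20 and 5.56 in Sen replicates 2 and 3. At +165.2 kb the siFOXF1/2 heights of 14.2 and 17.1 were set beside 14.5 and 14.4 in Sen replicates 1 and 3 and 11.1 in Pro replicate 2. Regions at +59.1 and +123.5 kb were held by 1 library in each of 3 and 2 groups, at 8.04 to 10.4 times the background.

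The 6 paired-end regions with a single holder were +10.6 kb in siFOXF1/2 replicate 1 and +72.5 kb in siFOXF1/2 replicate 2, at 18.0 and 18.2 times the background, and −59.2, −14.1, +36.9 and +113.7 kb in single Sen libraries, at 8.57 to 16.0. In the single-end set, sip300/CBP libraries listed the +106.4 kb site at 45.4 and 40.9, against 25.3 in Sen replicate 2. The −77 kb and +51.3 kb regions were each listed in sip300/CBP replicate 1 and Sen replicate 2. The other 6 single-end regions, at −77.4, −36.3, −16.3, −2.3, +71.2 and +115.8 kb, were each listed in a single Sen library, at 18.9 to 40.0 times the background.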

How the data were processed

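ATAC-seq libraries were sequenced on an Illumina NextSeq, per the labels' protocols, and the submitters' processing notes name Bowtie2 2.3.4.1, SAMtools 1.9, deepTools 3.1.1, MACS2 2.1.1 and the build hg19. How reads were shifted, duplicates handled and peaks called: not given in the sources used here. The authors deposited 1 peak list per library, with a fold enrichment ratio at the summit, the −log10 of the p-value and q-value and a score per peak (the score was not used). The lists end at a q-value of 0.0001.

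The pileup and local background of each peak were solved from fold = (pileup + 1) / (background + 1) and the Poisson p-value, and a whole pileup was found within 0.002 in −log10 p for 99.3% to 100% of peaks. Genome-wide background is the 1st percentile of local backgrounds. The detection floor is the smallest pileup whose p would still be listed, and local floors use the background of the nearest listed peak within 5 kb. A bound is the lowest height among holders divided by the highest floor among the others. Local floors, summit shifts and heights scaled on kept regions were added after seeing the data. The calculations ran in Python 3.11.15 with SciPy 1.17.1 and were tested on simulated data.

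Groups came from the labels. Window peak numbers and kilobases covered by peaks were tested with exact two-sided permutations of the libraries. The regions given in full are the one at the CCL2 start, the 6 strongest in paired-end Sen and the 3 strongest in single-end Sen by their lowest −log10 q, and all closed and opened regions; others are named as an account of the whole window. The members, window and lists were chosen with earlier results of these data known. Sequences of peaks on hg19 were not used here.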

Additional observations from a re-analysis of the deposited data

How the results depend on the processing

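Single-end lists, being shallow, show strong sites alone. The numbers of libraries also set limits: 2 against 4 cannot give an exact permutation p below 0.0667, and 2 against 2 none below 0.333. A −log10 q of at least 5 changed none of the 15 counts and differences tried. The lowest −log10 q of a window peak was 5.95, so this cut removed none of them and could not test the threshold. For Sen against Pro, 2 closed and 1 opened became 4 and 2 with 500 bp summit windows, and 1 and 0 with a bound of at least 2 under either scaling. The opened count was 0 with lists of equal length or a 50% cover, and 2 with Sen replicates 1 and 2 only or 3 and 4 only. For siFOXF1/2, the 2 opened became 1 with lists of equal length or either bound, and the 0 closed became 1 with 500 bp windows. In both comparisons the 500 bp counts include the +44.8 and +45.6 kb summits, which fell in separate windows although they share a kept region. For JUN-family knockdown, the 3 closed became 1 with equal lengths or the bound on kept regions. For sip300/CBP, the 1 closed became 0 with a 50% cover or the bound on kept regions. For sip65, the 2 closed became 0 with equal lengths or either bound, and 1 with a 50% cover. Lists of equal length, which even out totals by construction, reversed the peak number differences for Sen against Pro (2.5 to −2.75), JUN-family knockdown (−6 to 0.25) and sip65 (−7.5 to 0.5), removed that for sip300/CBP (−3.5 to 0) and lowered that for siFOXF1/2 (4.5 to 2.75).

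Closed and opened calls are easier to meet with fewer libraries, so a higher count without a replicate does not measure stability. Leaving out each replicate gave, for Sen against Pro, 2 to 2 closed, 1 to 2 opened and a difference of 0.5 to 4.5 peaks. The ranges were 0 to 1, 2 to 4 and 3.5 to 5.5 for siFOXF1/2, and 3 to 4, 0 to 0 and −6.5 to −5.5 for JUN-family knockdown. They were 2 to 5, 1 to 2 and −6 to −1 for sip300/CBP, and 2 to 9, 0 to 0 and −10 to −5 for sip65. With a replicate block the peak differences were 3, 4, −6.5, −3.5 and −7.5, in the order Sen against Pro, siFOXF1/2, JUN-family knockdown, sip300/CBP and sip65, and the direction stayed in all 5. Same-numbered libraries correlated in their deviations at −0.00142 to 0.106, so the numbers were not taken to pair them. In the 4 Sen libraries, no height among 21 groups of values stood apart by Dixon's test.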
